A study of Mus musculus with 2 samples.

Results

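The cells described here held at least 1 molecule of Vwf and at least 1 of Procr, and none of Clec1b or Serpinb2. They were proposed as platelet-primed stem cells, and they were picked by the measured values of these 4 genes, whose levels are therefore a description and not a finding. Of 18560 cells in 2 libraries, 179 met the rule, 83 of 8708 in the vehicle library and 96 of 9852 in the library from cells given DFO (deferoxamine, an iron chelator). They are called members below. The cells set against them met the same rule except that no Vwf molecule was counted, and they numbered 813 in the vehicle and 1065 in the DFO library. They are called Vwf-zero cells.

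Both libraries came from haematopoietic stem cells that had been sorted as Lineage-negative, Sca-1+, c-Kit+, CD150+ and CD48- from the bone marrow of wildtype C57/B6 mice aged 6 to 8 weeks, with the marrow of 8 mice pooled. The cells were kept in Myelocult M5300 medium with SCF at 100 ng/ml and Primocin at 200 µg/ml, among other additions. DFO was present at 10 µM for 48 h in one culture, and sterile water, the vehicle, in the other. About 20000 live cells per condition were loaded for 10x 3′ sequencing, and each condition is 1 library. Differences between the conditions thus rest on 1 library each and carry no p-value. Animals cannot be told apart within the pool, and the sort was made on surface protein before culture, so it does not fix the RNA levels measured 48 h later.

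Von Willebrand factor, the product of Vwf, is a large multimeric glycoprotein made by megakaryocytes and endothelial cells, which tethers platelets at sites of vessel damage. A fraction of mouse haematopoietic stem cells also expresses Vwf, and these cells are known for a bias towards platelet output. Procr encodes the endothelial protein C receptor (EPCR, CD201), which binds activated protein C on endothelium and marks stem cells with long-term repopulating activity. Clec1b encodes CLEC-2, the podoplanin receptor of platelets and megakaryocytes, and Serpinb2 encodes an inhibitor of plasminogen activators. Cells with either of these 2 RNAs were left out by the rule. In the RefSeq annotation of GRCm38.p6, Vwf spans chr6:125552948-125686679, Procr chr2:155751125-155755478, Clec1b chr6:129397297-129405413 and Serpinb2 chr1:107500892-107525600, exons and introns included.

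The 250 bases before the start are shown for 3 genes that the results turn on. Selp and Slamf1 in members stood above Vwf-zero cells in both libraries, and Pf4 is a platelet gene whose level differed widely between single members. The sequences are from the RefSeq promoter table of GRCm38.p6, 5′ to 3′ on the + strand. Capitals mark a core ETS motif (AGGAAG, or CTTCCT on the other strand) and, for Pf4, an E-box (CAGCTG), found by letter matching.
Selp, chr1:164115014-164115263: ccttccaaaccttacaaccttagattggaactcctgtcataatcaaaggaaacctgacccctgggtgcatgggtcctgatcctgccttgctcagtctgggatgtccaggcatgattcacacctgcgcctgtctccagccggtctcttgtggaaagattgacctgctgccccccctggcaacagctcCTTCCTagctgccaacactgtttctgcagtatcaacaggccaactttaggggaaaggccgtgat
Slamf1, chr1:171766882-171767131: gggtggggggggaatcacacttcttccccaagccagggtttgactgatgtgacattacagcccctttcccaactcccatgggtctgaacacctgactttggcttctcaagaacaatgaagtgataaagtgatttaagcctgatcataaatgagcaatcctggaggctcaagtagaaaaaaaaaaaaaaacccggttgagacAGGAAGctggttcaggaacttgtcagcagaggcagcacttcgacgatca
Pf4, chr5:90772185-90772434: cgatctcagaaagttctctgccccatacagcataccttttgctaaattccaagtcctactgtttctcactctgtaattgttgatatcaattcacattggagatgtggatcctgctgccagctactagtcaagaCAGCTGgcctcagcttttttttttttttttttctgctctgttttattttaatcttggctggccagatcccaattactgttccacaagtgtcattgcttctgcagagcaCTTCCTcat
The ETS letters started 64 bases before the start of Selp, 49 before Slamf1 and 9 before Pf4, and the E-box 117 before Pf4. Selp encodes P-selectin, an adhesion receptor of platelet granules and endothelium. Slamf1 encodes CD150, one of the sorted surface proteins, and Pf4 encodes platelet factor 4, a chemokine of platelet granules. The motifs were counted over both strands of such windows, for the 45 genes with a window among the 62 that were higher in members in both libraries. AGGAAG or CTTCCT stood in 24.4% of them against 27.8% of the 6113 tested genes with a window. CAGCTG stood in 17.8% against 10.2%, and the RUNX core TGTGGT or ACCACA in 17.8% against 10.1%. The GATA letters AGATAA or TTATCT stood in 0 of 45 against 5.28%. A match here describes letters in a window and not a bound site.

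The recovered tables held 14366 genes and a median of 27806 molecules per cell in the vehicle and 27114 in the DFO library. Members had median depths of 28861 and 27278 molecules and Vwf-zero cells 28435 and 27758, so the sets compared were of like depth. Mitochondrial genes made up a median of 3.96% and 4.56% of the molecules of members and 4.09% and 4.60% of those of Vwf-zero cells. The libraries shared 24 cell barcodes, of which 0 were members. Both Xist and Y-linked RNA were present, so the pool held both sexes, and cells with both are likely doublets of a male and a female cell. Such cells made up 9.64% (95% exact Clopper-Pearson interval 4.25 to 18.1%) of members in the vehicle library against 2.95% (1.90 to 4.36%) of Vwf-zero cells. In the DFO library they made up 15.6% (9.02 to 24.5%) against 5.54% (4.24 to 7.09%). Counting the deepest 5% of each library as well, 15 of 83 and 19 of 96 members were likely doublets, or 18.1% and 19.8%, against 5.04% and 9.39% of Vwf-zero cells. Members thus held more likely doublets than the cells they were set against, and values without them are given beside many of the results below. Doublets of cells of the same sex and of lesser depth are not caught this way. Leaving out likely doublets therefore does not clear a set of all doublets. Intervals here and below cover counting error only.

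Members were 0.953% (0.760 to 1.18%) of the vehicle library and 0.974% (0.790 to 1.19%) of the DFO library, and the intervals overlapped almost fully. Cells with any Vwf were 10.7% of the vehicle and 7.19% of the DFO library, and cells with Clec1b or Serpinb2 8.19% and 3.37%. With each cell thinned to 10000 molecules, which left out 351 and 433 shallower cells, members were 29 of 8357 cells (0.347%, 0.233 to 0.498%) and 22 of 9419 (0.234%, 0.146 to 0.353%), again with overlapping intervals. Cells with any Vwf were then 4.37% and 3.05%. Vwf was found in 9.26% (7.45 to 11.3%) of Procr-positive cells without Clec1b and Serpinb2 in the vehicle library, and in 6.92% (6.34 to 7.53%) of the Procr-zero cells of the same kind. In the DFO library the shares were 8.27% (6.75 to 10.0%) and 5.49% (5.01 to 6.00%). After thinning they were 7.14% (4.84 to 10.1%) against 3.52% (3.12 to 3.96%) in the vehicle and 4.34% (2.74 to 6.496%) against 2.55% (2.23 to 2.90%) in the DFO library. At equal depth these shares were thus higher with Procr than without it, with intervals apart in the vehicle and overlapping in the DFO library. Both genes belong to the rule and likely doublets were kept, so the shares only describe the libraries. With cells holding Clec1b or Serpinb2 kept, Vwf was in 10.02% of Procr-positive and 10.76% of Procr-zero vehicle cells before thinning. After thinning it was in 7.11% and 4.23%. In the DFO library the shares were 8.53% and 7.005% before and 4.33% and 2.97% after thinning.

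Neutrophil-monocyte cells, which should lack Vwf, gave the background. Vwf was seen in 0 of 58 of them in the vehicle library, which allows a share of up to 5.17% (3 counts of 58), and in 1 of 60 (1.67%, 0.0422 to 8.94%) in the DFO library, at median depths of 30516 and 27795 molecules. Procr was seen in 2 of 58 and 4 of 60 of them, or 3.45% and 6.67%. Cells with Clec1b or Serpinb2 held Vwf most often, at 49.9% (46.2 to 53.7%) and 46.1% (40.6 to 51.6%), and held Procr in 3.09% and 3.31%. They were deeper, at medians of 42055 and 39382 molecules, and 29.3% and 27.7% of them were likely doublets. After thinning, Vwf was in 19.7% (15.6 to 24.3%) and 27.45% (20.55 to 35.2%) of cells that still held Clec1b or Serpinb2. With only 58 and 60 neutrophil-monocyte cells, the upper limits were set mainly by the number of cells. A background near the share of Vwf in Procr-zero cells could thus not be told from a lower one. A single Vwf molecule was therefore not taken to place a single cell.

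**Figure D1:**
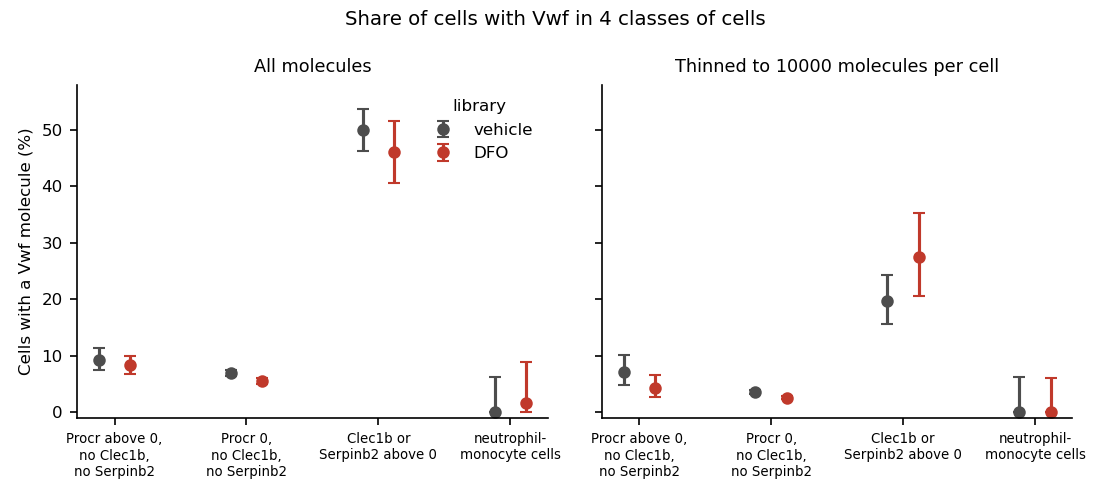
Share of cells with at least 1 Vwf molecule (percent, vertical axis) in 4 classes of cells of the vehicle and DFO libraries, with all molecules (left) and after thinning each cell to 10000 molecules (right). Bars are 95% exact binomial intervals. Cells with Clec1b or Serpinb2 stood highest, at 49.9% and 46.1% before thinning and 19.7% and 27.45% after it. Among cells without Clec1b and Serpinb2, Procr-positive cells stood above Procr-zero cells in both libraries.

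Most members carried Vwf at the threshold. In the vehicle library 61 of 83 had 1 Vwf molecule, 16 had 2 and 6 had 3 to 6, and in the DFO library 69 of 96 had 1, 17 had 2 and 10 had 3 or 4. Procr was also low, with 1 molecule in 41 and 53 members and at most 5 in any. Summed over members, Vwf stood at 41.3 CPM (molecules per 1000000 of the set; 95% Poisson interval 34.1 to 49.4) in the vehicle and 43.8 CPM (36.8 to 51.8) in the DFO library. Vwf-positive cells without Procr stood at 41.2 and 39.5 CPM. Procr stood at 55.4 and 49.5 CPM in members and 46.9 and 44.9 CPM in Vwf-zero cells. Just outside the rule were 9 vehicle and 4 DFO cells with Vwf, Procr and also Clec1b or Serpinb2, of which 2 and 3 had only 1 molecule of the excluding genes. These cells carried Pf4 at 7249 and 2263 CPM, far above the members. However, 7 of the 9 and 4 of the 4 were likely doublets, at median depths of 63942 and 60172 molecules for all 9 and 4.

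Members split by their number of Vwf molecules differed in degree from Vwf-zero cells. Ly6a, which encodes the stem cell antigen Sca-1, stood at 274 CPM with 0 Vwf molecules, 397 with 1 and 490 with 2 or more in the vehicle library, and at 275, 452 and 584 CPM in the DFO library. Cd48, the CD48 antigen of more differentiated progenitors, stood at 53.2, 21.3 and 8.35 CPM and at 59.9, 25.4 and 17.4 CPM in the same order. Plac8, a gene of progenitors and lymphoid cells, stood at 246, 142 and 84.9 CPM and at 248.8, 160 and 110 CPM. These 3 genes kept the same order of the 3 classes in both libraries, as did Mecom, Apoe, Sult1a1 and Cavin2. Cavin2 stood at 0.77, 4.72 and 9.74 CPM and at 0.95, 1.81 and 14.1 CPM, from at most 13 molecules in a class of members. The Cd48 intervals of the classes with 1 and with 2 or more molecules overlapped in both libraries. Not every gene kept an order: Selp stood at 12.5, 20.8 and 15.3 CPM with vehicle, and Pf4 at 117.8, 96.4 and 407.9 CPM with DFO. Clu, which encodes the secreted chaperone clusterin, stood at 3.96, 13.7 and 13.9 CPM and at 3.83, 17.2 and 23.9 CPM, so that in the vehicle library the cells with 1 and with 2 or more molecules were alike. Only 22 and 27 members had 2 or more Vwf molecules.

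Set against Vwf-zero cells, members had higher RNA of stem cell and platelet-biased stem cell genes and lower RNA of multipotent and lymphoid progenitor genes in both libraries. A gene was counted as differing when its log2 ratio of CPM + 1 was at least 0.5 in the same direction in both libraries, at 10 CPM or more. By that measure 62 of 7649 genes (0.811%) were higher in members and 15 (0.196%) were lower, the 4 genes of the rule left out. The SD of the log2 differences over all genes was 0.22 in the vehicle and 0.21 in the DFO library, so the fold used lies beyond 2 SD, and 255 and 223 genes passed it in each library alone. Without the likely doublets, 61 of the 62 and 15 of the 15 kept their direction in both libraries, and 53 and 14 stayed past the fold. These are descriptions of 1 pool of cells, read in 2 libraries.

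**Figure D2:**
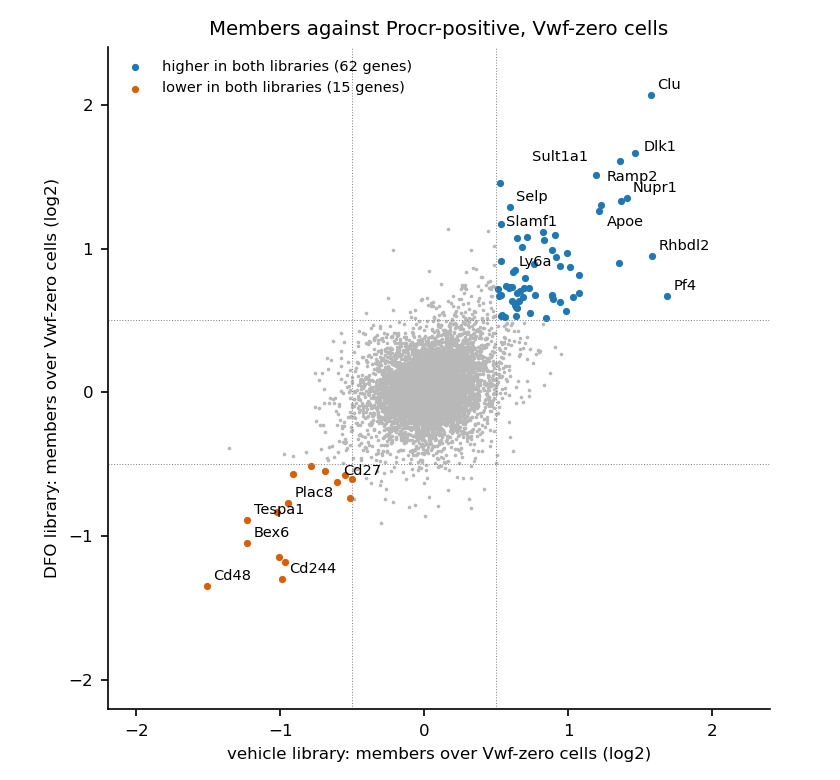
Log2 difference between members and Procr-positive, Vwf-zero cells for each gene, in the vehicle library (horizontal axis) and the DFO library (vertical axis). Dotted lines mark the fold used, and coloured points are the 62 genes higher and 15 lower in both libraries. Clu and Dlk1 lie far out among the higher genes and Cd48 among the lower ones.

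Among genes of secreted and cell surface proteins, Clu stood at 13.7 CPM (9.78 to 18.8) in members against 3.96 CPM in Vwf-zero cells of the vehicle library, a log2 difference of 1.57. In the DFO library it stood at 19.2 CPM (14.6 to 24.7) against 3.83 CPM, a log2 difference of 2.06. Clu belongs to the platelet-biased list. Clu stood higher than in members in cells with Clec1b or Serpinb2, at 36.1 CPM with vehicle and 32.15 CPM with DFO. Vwf-positive, Procr-zero cells had Clu at 25.9 and 17.2 CPM. It was found in 33.7% of members and 9.59% of Vwf-zero cells in the vehicle library, and in 38.5% and 9.11% in the DFO library, so its difference was spread over many cells. Apoe, the lipid carrier apolipoprotein E, stood at 67.4 against 28.5 CPM and at 57.5 against 23.4 CPM. Cells with Clec1b or Serpinb2 had less Apoe, at 6.09 and 5.77 CPM. Col18a1, a basement membrane collagen, stood at 20.8 against 7.44 CPM and 18.5 against 6.77 CPM. It stood higher than in members in cells with Clec1b or Serpinb2, at 82.2 and 68.8 CPM. The same held for Vwf-positive, Procr-zero cells, at 58.6 and 41.9 CPM, and for all cells, at 31.95 and 19.05 CPM. Tm4sf1, a tetraspanin-like membrane protein, and Ramp2, a partner of the adrenomedullin receptor, had log2 differences of 1.23 and 1.19 in the vehicle and 1.30 and 1.51 in the DFO library. Jam2, a junctional adhesion molecule, had 0.94 and 0.88, but −0.53 in the male cells of the DFO library. Dlk1, an imprinted Notch-related ligand, was an exception in its distribution. It stood at 40.6 against 14.03 CPM and 46.4 against 13.96 CPM, but 3 cells held 59.1% of the members' Dlk1 molecules in the vehicle library and 3 cells held 53.1% in the DFO library.

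Enzymes, stress genes and membrane trafficking genes made up the rest of the 15 highest. Sult1a1, a sulfotransferase used as a stem cell marker, stood at 46.9 CPM in members and 17.7 CPM in Vwf-zero cells with vehicle, and at 49.5 and 15.6 CPM with DFO. Nupr1, a stress-induced nuclear protein, had log2 differences of 1.41 and 1.35. Ctsh, a cysteine cathepsin, had 0.92 and 0.94, and the fatty acid desaturase family gene Fads3 had 0.91 and 1.10. Serpina3f, a serine protease inhibitor, had 1.35 and 0.90, and Rhbdl2, a rhomboid protease, 1.58 and 0.95. Ehd3, which acts in endosomal recycling, had 0.99 and 0.97, and Myof, a membrane repair protein, 0.89 and 0.99. Ehd3 stood higher still in cells with Clec1b or Serpinb2, at 78.3 and 70.9 CPM against 13.1 and 12.8 CPM in members, and so did Serpina3f, at 28.9 and 34.5 CPM against 15.5 and 10.9 CPM. Sult1a1, Ctsh and Myof were at 1.21 CPM or less there.

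Stem cell markers were mostly higher in members. Of the 23 genes of that list measured at 5 CPM or more, 21 were higher in members in both libraries and 1 lower, and 13 were higher by at least 0.25 in both. Of all 8977 genes so measured, 34.9% were higher in both libraries and 5.2% by at least 0.25. The median log2 difference was 0.44 in the vehicle and 0.57 in the DFO library, against 0.03 over all genes. Ly6a stood at 421 CPM (397 to 445) against 274 CPM in the vehicle and 491 CPM (467 to 516) against 275 CPM in the DFO library. Slamf1 stood at 11.99 against 6.92 CPM and 13.1 against 5.66 CPM. Without likely doublets it stood at 8.77 against 6.94 CPM with vehicle, under the fold, and at 16.0 against 5.79 CPM with DFO. Over all cells Slamf1 stood at 14.4 and 11.8 CPM, and in Vwf-positive, Procr-zero cells at 24.3 and 23.9 CPM, so its level in members was not high within the libraries. Mecom, the transcription factor EVI1 needed for stem cell maintenance, had log2 differences of 0.44 and 0.77. Hlf, a transcription factor of stem cells, had 0.01 and 0.23, under the fold. Cd34, which is low in long-term stem cells, was the gene lower in both, at −0.41 and −0.31. The summed list stood at 4778 CPM in members, 3938 in Vwf-zero cells and 3334 in Vwf-positive, Procr-zero cells of the vehicle library, and at 4860, 3881 and 3369 CPM in the DFO library. The list thus stood highest where both RNAs were found. Without likely doublets 21 of 23 genes were still higher in both libraries, with medians of 0.48 and 0.57.

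**Figure D3:**
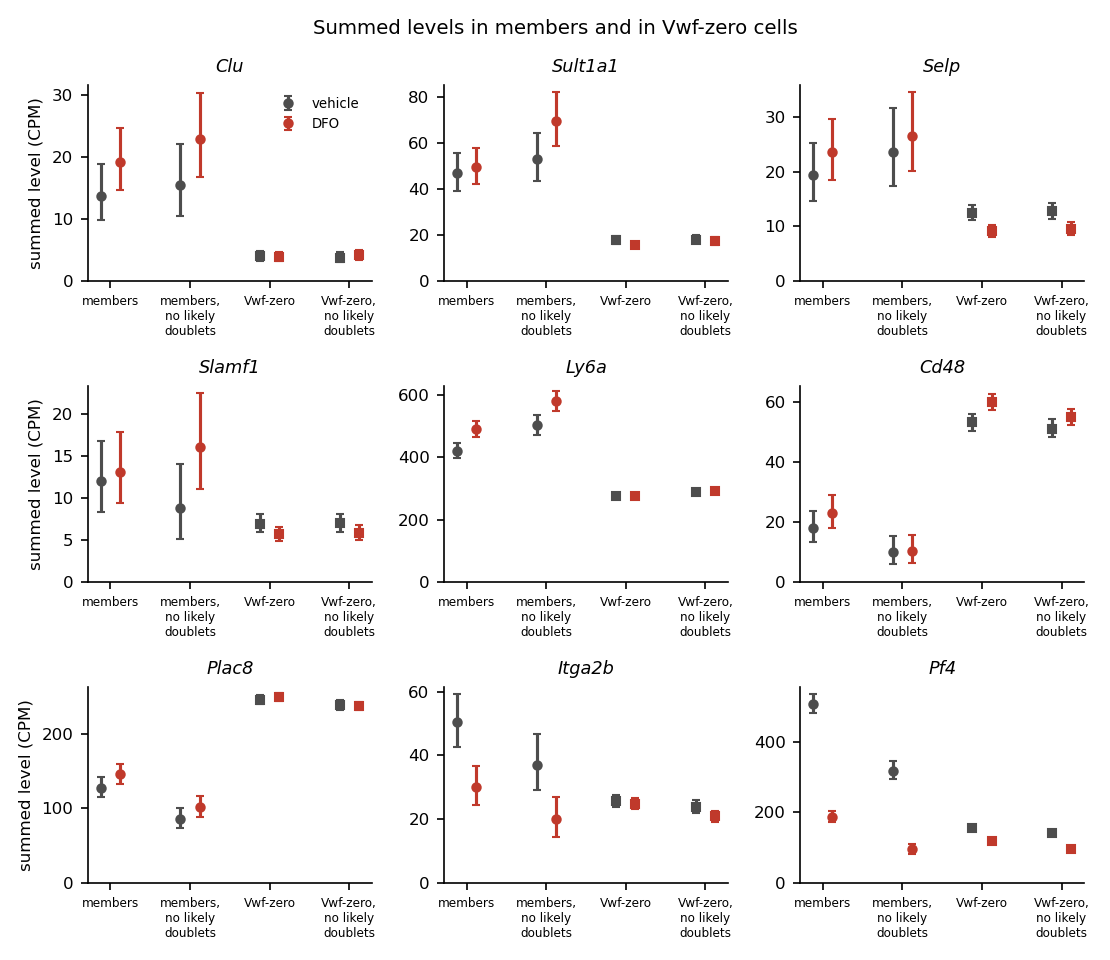
Summed level (CPM, vertical axis, from 0) of 9 genes in members (circles) and Vwf-zero cells (squares) of each library, with all cells and without likely doublets, and 95% Poisson intervals as bars. Without likely doublets Cd48 in members was lower and Clu and Ly6a were higher than with them, whereas Pf4 of DFO members was 96.0 CPM in place of 188 CPM, next to 96.7 CPM in Vwf-zero cells.

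Genes of multipotent and lymphoid progenitors were mostly lower in members. The erythroid and neutrophil-monocyte lists, each with 4 measured genes with vehicle and 3 with DFO, were not. Their medians were 0.16 and 0.15, and 0.02 and 0.27. Cd48 stood at 18.0 CPM (13.4 to 23.6) against 53.2 CPM (50.3 to 56.1) with vehicle, a log2 difference of −1.51, and at 23.0 CPM (18.0 to 29.0) against 59.9 CPM (57.3 to 62.7) with DFO, a difference of −1.34. It was found in 31.3% of members and 42.1% of Vwf-zero cells with vehicle, and in 29.2% and 44.7% with DFO. Plac8 stood at 127 against 246 CPM and 145 against 248.8 CPM. Cd27, a costimulatory receptor of multipotent progenitors, had −0.61 and −0.62, and Flt3, the receptor that marks lymphoid-primed progenitors, −0.52 and −0.73, with 0.07 in the male cells given vehicle. Cd244, a further SLAM family receptor, had −0.99 and −1.30, and Tespa1, a gene of lymphocyte signalling, −1.23 and −0.89. The other genes of the 10 lowest were Bex6, Cd72, Sh2d5, 4930519L02Rik and Gm5111, of which the B cell receptor partner Cd72 had −1.01 and −1.14. Of the 9 measured genes of the multipotent and lymphoid list, 5 were lower by at least 0.25 in both libraries, against 1.68% of all genes, and its medians were −0.47 and −0.53. Without likely doublets Cd48 in members was 9.80 and 10.2 CPM, lower than with them in both libraries.

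Genes of platelet bias and of the megakaryocyte lineage were measured as lists that share genes, among them Treml1 and Pf4. Their medians are therefore not independent of each other. Of the 17 measured platelet-biased stem cell genes, 14 were higher in both libraries and 0 lower, beside 34.9% and 22.9% of all genes, with medians of 0.64 and 0.57. Without likely doublets 12 of 16 were higher and 0 lower, with medians of 0.54 and 0.51. Selp stood at 19.4 against 12.5 CPM with vehicle and 23.6 against 9.09 CPM with DFO. Of 24 megakaryocyte markers, 22 were in the tables and 11 reached 5 CPM in both libraries. All 11 were higher in members, with a median of 0.69 in the vehicle and 0.38 in the DFO library. Of the fixed megakaryocyte genes, Itga2b, the integrin CD41, stood at 50.4 against 25.6 CPM with vehicle and 30.1 against 24.8 CPM with DFO. Its partner Itgb3 had log2 differences of 0.70 and 0.35, and the glycoprotein gene Gp9 0.64 and 0.59, with −0.10 in thinned vehicle cells. Gata1, the transcription factor of erythroid and megakaryocytic cells, stood at 10.6 against 2.35 CPM and 5.11 against 2.79 CPM. Gata2, its relative in stem and progenitor cells, had 0.49 and 0.14. Ppbp, a platelet chemokine, had 9 and 1 molecules over all members, and Gp1bb, a platelet receptor subunit, 1 and 1.

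The level of the megakaryocyte list set members far below the cells the rule excluded. Its sum was 1346 CPM in members, 742 in Vwf-zero cells, 4366 in Vwf-positive, Procr-zero cells and 9326 in cells with Clec1b or Serpinb2 in the vehicle library. In the DFO library the sums were 961, 718, 2865 and 7599 CPM. Over single members the sum ranged from 263 to 7961 CPM with a median of 876 in the vehicle library, and from 337 to 5262 CPM with a median of 719 in the DFO library. Vwf-zero cells had medians of 645 and 636 CPM. Members and Vwf-zero cells thus overlapped over nearly their whole range.

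Pf4 made up much of that difference, and it lay in few cells. It stood at 509 CPM (483 to 536) in members against 157 CPM (152 to 162) in Vwf-zero cells of the vehicle library, and at 188 CPM (173 to 204) against 118 CPM (114 to 122) in the DFO library. Among single cells, the median was 81.8 CPM in members and 72.4 in Vwf-zero cells with vehicle, and 32.99 and 48.3 CPM with DFO. Pf4 was found in 84.3% of members against 81.9% of Vwf-zero cells with vehicle, and in 58.3% against 72.6% with DFO. The sums and the medians of the DFO library thus differ in direction. The 3 members with the most Pf4 held 44.5% of its molecules in the vehicle library and 52.2% in the DFO library. Members at 1000 CPM or more numbered 9 of 83 with vehicle, of which 5 were likely doublets, and 3 of 96 with DFO, of which 2 were. Among Vwf-zero cells 14 of 813 and 15 of 1065 reached that level. Without likely doublets the sums were 319 against 140 CPM with vehicle, a log2 difference of 1.18, and 96.0 against 96.7 CPM with DFO, a difference of −0.01. Itga2b likewise came to 37.1 against 23.8 CPM and 19.9 against 20.9 CPM. Without likely doublets the megakaryocyte list had medians of 0.46 and 0.30, with 7 of 10 genes higher in both libraries and 1 lower. In male cells Pf4 of the DFO library was at −0.31, and in the 14 and 12 members with at least 2 molecules of both Vwf and Procr it was at −0.80 and −1.94. Set against the name platelet-primed, the stem cell list was thus higher with and without likely doublets, while Pf4 and Itga2b of DFO members were not above Vwf-zero cells once these were left out.

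**Figure D4:**
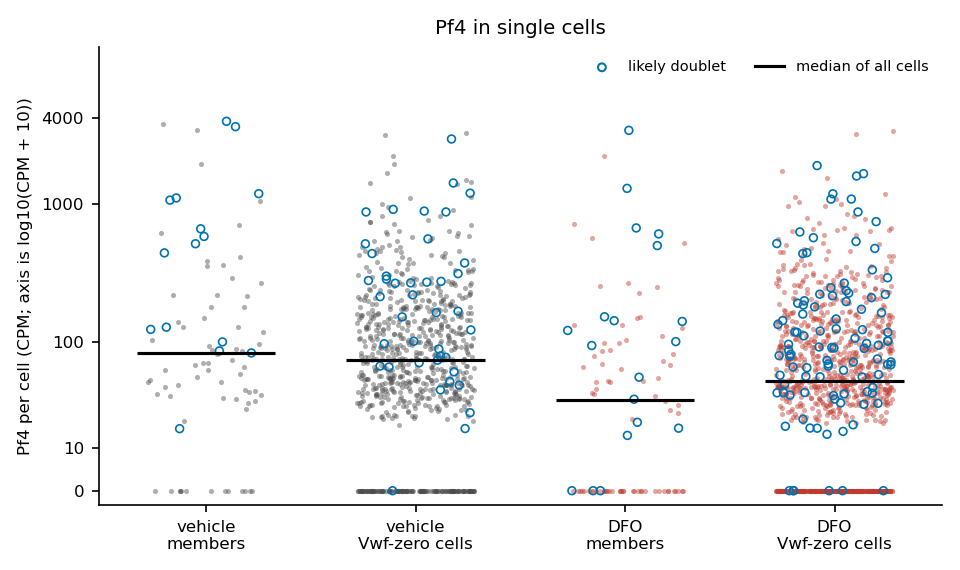
Pf4 in each member and each Vwf-zero cell of the 2 libraries, in CPM on an axis of log10(CPM + 10). Open circles are likely doublets and bars are medians of all cells of a set. The medians of members lie near those of Vwf-zero cells, at 81.8 against 72.4 CPM with vehicle and 32.99 against 48.3 CPM with DFO, while 9 and 3 members reach 1000 CPM.

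The machinery that stores, cleaves and binds VWF differed less. Of its 16 measured genes, 11 were higher in members in both libraries and 2 lower, with medians of 0.20 and 0.10. By at least 0.25, 7 were higher in both, beside 5.2% of all genes. Without likely doublets 7 of 15 were higher and 4 lower, with medians of 0.12 and 0.09, beside 34.9% of all genes higher in both libraries when every cell is kept. Gp5, a subunit of the platelet receptor for VWF, stood at 11.6 against 3.44 CPM with vehicle and 8.31 against 3.34 CPM with DFO. Mmrn1, the granule protein multimerin, stood at 26.4 against 12.9 CPM and 19.2 against 12.6 CPM. Of 17 megakaryocyte-erythroid transcription factors, 14 were higher in both libraries and 0 lower, with medians of 0.23 and 0.19. By 0.25 or more, 5 were higher in both. Of all genes 34.9% were higher in both and 5.2% by 0.25 or more. Without likely doublets 13 were higher and 1 lower, with medians of 0.10 and 0.23. Fli1, an ETS factor of stem cells and megakaryocytes, had log2 differences of 0.47 and 0.45.

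Since VWF and EPCR are both endothelial proteins, endothelial markers were examined. Of 20 listed, 16 were in the tables. Cdh5, the defining VE-cadherin, and Cldn5, Sox17 and Mmrn2 were not in them, so their levels could not be read. Kdr, the VEGF receptor of endothelium, had 0 and 2 molecules over all members, and Plvap, a protein of endothelial diaphragms, 1 and 2. Kdr and Plvap were thus at or near 0, while Emcn, a further endothelial marker, reached a mean of 5 CPM over the sets in both libraries. Of the 9 endothelial-list genes at 5 CPM or more, 8 were higher in members in both libraries, beside 34.9% of all genes, with medians of 0.48 and 0.30. Without likely doublets all 9 were higher, with medians of 0.48 and 0.46. Sox18, a vascular transcription factor, stood at 7.41 against 3.24 CPM with vehicle and 13.1 against 3.89 CPM with DFO. Ecscr, an endothelial surface protein, stood at 20.1 against 10.9 CPM and 23.6 against 10.4 CPM. The summed list ranged over single members from 159 to 2646 CPM with vehicle and from 152 to 2504 CPM with DFO, against 0 to 2930 and 0 to 2050 CPM in Vwf-zero cells. Stem cells also express several genes of this list, and their part in the difference was not tested.

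Cell cycle, growth and stress genes gave small or uneven differences. G2/M genes were higher in members by a median of 0.21 in the vehicle library, with all 30 measured genes higher, and by −0.04 in the DFO library, with 9 of 30 higher, so the libraries differed in direction. Of all genes 56.2% were higher in the vehicle and 56.7% in the DFO library. Without likely doublets the G2/M medians were 0.10 and −0.05. S phase genes had medians of −0.15 and −0.03. Mki67, a proliferation marker, had log2 differences of 0.25 and −0.09, and Myc, the growth regulator, −0.09 and −0.08. Quiescence-associated genes had medians of 0.17 and 0.23, with 12 of 21 higher and 2 lower in both, beside 34.9% and 22.9% of all genes. Egr1, an immediate early factor, stood at 25.04 against 11.9 CPM with vehicle and 24.0 against 12.6 CPM with DFO. Of 13 immediate early genes, 10 were higher in both, beside the same 34.9% of all genes. Glycolysis, hypoxia response and cholesterol synthesis genes lay within 0.05 of 0 in both libraries by their medians.

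DFO was then set against vehicle inside the set. With 83 and 96 cells of 1 library each, 228 of 7915 genes were higher with DFO by at least 0.5 (2.88%) and 226 lower (2.86%). The same comparison in the 813 and 1065 Vwf-zero cells gave 7 genes past the fold. The SD of the log2 difference over genes was 0.25 in members and 0.11 in Vwf-zero cells, at medians of 0.02 and 0.02. The larger count in members therefore came with a wider spread of all genes from fewer cells. Among the genes highest in DFO members were Tarsl2 (1.28), a tRNA synthetase, and Fbxw17 (1.20), an F-box gene. Cpne8, a copine that binds membrane lipids, stood at 11.6 CPM (8.01 to 16.3) with vehicle and 24.3 CPM (19.1 to 30.4) with DFO. In Vwf-zero cells it had a log2 difference of 0.08. The genes named here were picked by this same difference, so their intervals are no test of it. Prdm16, a transcription factor of stem cell maintenance, stood at 5.64 and 11.5 CPM. Insr, the insulin receptor, stood at 19.4 CPM with vehicle and 8.95 CPM with DFO. In thinned cells Insr was at 0.32, and Fbxw17 was at −0.02 with at least 2 molecules of both Vwf and Procr, so these 2 genes turned in direction with fewer cells or molecules. Cpne8 and Prdm16 stayed higher with DFO in both.

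The genes of iron were read first, as DFO removes iron. Tfrc, the transferrin receptor, stood at 29.3 CPM in members given vehicle and at 41.6 CPM in those given DFO, a log2 difference of 0.49, and had 0.27 in Vwf-zero cells. Hmox1, the heme oxygenase that frees iron from heme, stood at 21.5 and 13.7 CPM, a difference of −0.61, and had −0.66 in Vwf-zero cells. For Hmox1 the female members alone had 0.49, the opposite direction. Over the iron handling list the median was 0.13 in members and 0.04 in Vwf-zero cells. Hypoxia response genes had medians of −0.16 and −0.08, and glycolysis genes −0.10 and −0.10, in members and Vwf-zero cells. Cdkn1a, the cell cycle inhibitor p21, had 0.42 and −0.07, and 0.06 in members without likely doublets.

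Megakaryocyte genes were lower in DFO members than in vehicle members. Of 13 measured markers 11 were lower and 2 higher, with a median of −0.24 against 0.00 in Vwf-zero cells. By at least 0.25, 6 of the 13 were lower and 1 higher. Of all measured genes 46.6% were lower in any degree, 16.2% were higher by at least 0.25 and 14.2% lower by as much. Pf4 had a log2 difference of −1.43 in members, −0.41 in Vwf-zero cells and −1.29 in all cells of the libraries. Treml1, a receptor of platelet granules, had −1.75 in members and −0.80 in Vwf-zero cells, from 10.9 to 2.56 CPM in members. Itga2b had −0.73 and −0.05, Gata1 −0.92 and 0.18, and Itgb3 −0.27 and 0.08, in members and Vwf-zero cells. Without likely doublets the members' values were −1.72 for Pf4, −2.06 for Treml1 and −0.87 for Itga2b, so the direction was the same without those cells. In the 29 and 22 thinned members Treml1 was at 3.34 and Itga2b at 0.63, both from few molecules, and the list median was 0.01. Vwf itself, a gene of the rule, had 0.08 in members and −0.60 over all cells. With 1 library per condition and 9 and 3 cells rich in Pf4, the difference between the conditions and that between these libraries cannot be told apart.

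The stem cell and platelet-biased lists, higher in members than in Vwf-zero cells, had small medians for DFO over vehicle, while single genes of the 62 differed more. The stem cell list had a median of 0.07 in members and −0.06 in Vwf-zero cells, and the platelet-biased list −0.07 and −0.13. The list of VWF storage, cleavage and platelet receptors had −0.20 in members, with 13 of 16 genes lower, and −0.045 in Vwf-zero cells. Without likely doublets its median in members was −0.043. Ly6a had log2 differences of 0.22 and 0.00, Clu 0.45 and −0.04, and Ramp2 0.66 in members. Selp had 0.27 in members and −0.42 in Vwf-zero cells. Ctnnal1, a catenin-like gene of the stem cell list, stood at 16.2 CPM with vehicle and 30.7 CPM with DFO in members and had −0.09 in Vwf-zero cells. Interferon response genes had a median of 0.18 in members and −0.04 in Vwf-zero cells, S phase genes 0.15 and −0.02, and G2/M genes −0.16 and 0.11. Mitochondrially encoded genes had 0.13 and 0.12, alike in both sets. Without likely doublets the members' medians were 0.13 for stem cell, 0.0035 for platelet-biased, 0.097 for interferon response, 0.11 for S phase, −0.098 for G2/M and 0.19 for mitochondrially encoded genes, so the interferon and G2/M medians were over 1.5 times smaller.

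**Figure D5:**
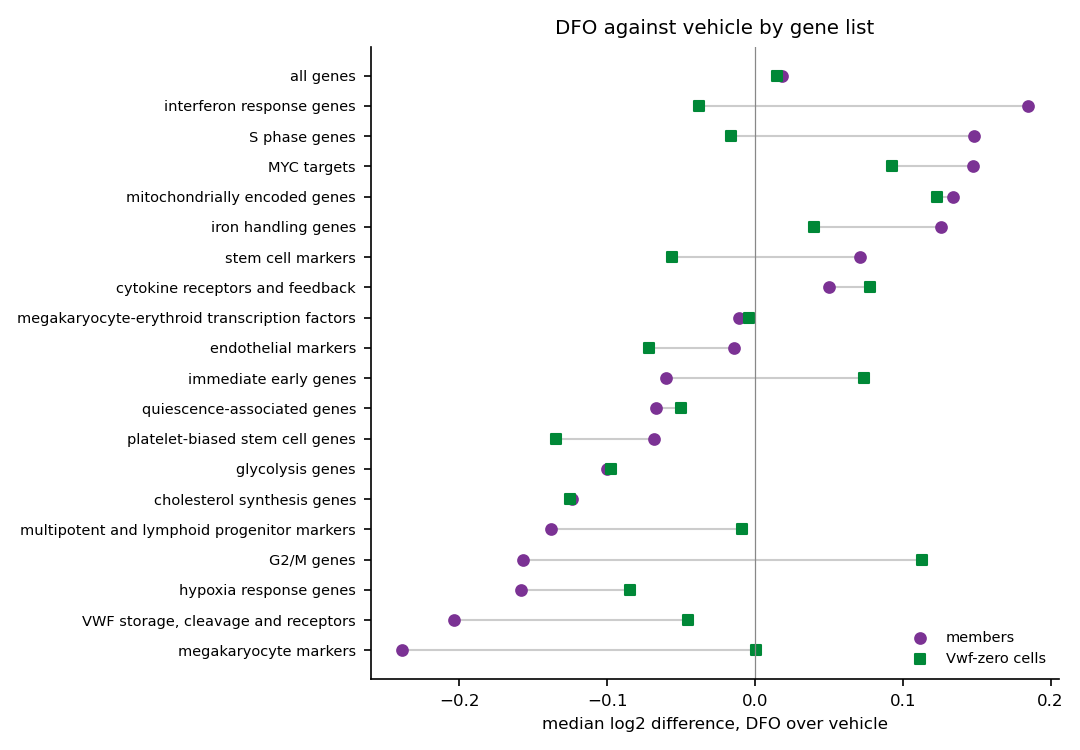
Median log2 difference of DFO over vehicle (horizontal axis) for 19 gene lists with at least 5 measured genes and for all genes, in members (circles) and Vwf-zero cells (squares). The megakaryocyte list lies lowest in members, at −0.24 against 0.00 in Vwf-zero cells, and interferon response genes stand at 0.18 against −0.04, or 0.097 in members without likely doublets.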

How the data were processed

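Single-cell 3′ RNA libraries of sorted and cultured stem cells were read, 1 with vehicle and 1 with DFO. Per the submitters' processing notes the reads were handled with FastQC 0.11.9, Trim Galore 0.6.5 and Cell Ranger 3.0.2, with build mm10. The authors deposited a table of natural log values per gene and cell, which were found to equal ln(1 + 27408 × molecules / total). Molecules were recovered from them, and 100.0% of the nonzero values were whole within 0.05. No source used here gives the filters the authors set on cells and genes.

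Molecules were summed per set and library and scaled to 1000000, and log2 differences were taken of CPM + 1. Genes passed at 10 CPM in at least 1 of the sets, in both libraries for members against Vwf-zero cells, with a difference of 0.5, and lists at a mean of 5 CPM. Intervals are 95% exact (Poisson or Clopper-Pearson). No doublet caller was run: cells with both sexes' RNA (at least 5 Xist and 2 molecules of 4 Y genes) or in the top 5% of molecules were called likely doublets. Named genes were the 15 highest and 10 lowest by the smaller difference of the 2 libraries, the 10 highest and 10 lowest with DFO, fixed genes, and list genes at the ends of a list. Some genes that this rule names are not reported here. The members and 25 gene lists were chosen with earlier results of these data known. The calculation was tested on simulated data. Python 3.11.15, numpy 2.4.6, scipy 1.17.1, pandas 2.3.3 and matplotlib 3.10.9 were used. Alternatives changed the pseudocount, minimum, weighting, depth, rule, sex and doublets.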

Additional observations from a re-analysis of the deposited data

How the results depend on the processing

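Of the summary values under 15 other settings, 99 stayed within their limits and 70 moved. Counts of genes higher and lower in members in both libraries (62 and 15) and with DFO in members (228 and 226) moved with the filter and the number of cells. With a pseudocount of 10 CPM there were 25 higher in members and 29 and 33 with DFO, the stem cell medians were 0.36 and 0.28, the megakaryocyte medians 0.47 and 0.23, and the multipotent median with DFO −0.29. With the mean over cells 33 genes were lower, the megakaryocyte median with vehicle was 0.53 and the multipotent median with DFO −0.72. A lower minimum gave 119 and 26, and 450 and 410, with a megakaryocyte median of 0.57 with DFO. A higher minimum gave 29 and 9, and 84 and 90, with a stem cell median of 0.40 with DFO. A minimum of 100 CPM, chosen after seeing the data, gave 3 and 2, and 2 and 3. Weighting Vwf-zero cells to the members' depth gave a stem cell median of 0.48 with DFO, and leaving out the member with the most Pf4, also chosen after seeing the data, a megakaryocyte median of 0.26 with DFO.

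With at least 2 molecules of Vwf and of Procr, 14 and 12 members remained (0.161% and 0.122% of cells), with 295 and 255, and 2026 and 1299 genes. The stem cell medians were 0.36 and 0.71, the megakaryocyte median 0.11 with vehicle and 0.063 for DFO over vehicle, and the multipotent median −0.12 with DFO. Macrophage and dendritic genes had −0.43 and −1.03. Reversed were Cd244 (0.14), Gp9 (−1.82) and Pf4 (−0.80) with vehicle, Pf4 (−1.94), Ctsh (−0.21) and Jam2 (−1.55) with DFO, and Fbxw17 (−0.022), 9930012K11Rik (2.81) and Itga2b (0.072) for DFO over vehicle. Without likely doublets there were 107 and 35, and 459 and 340 genes, a megakaryocyte median of 0.46 with vehicle, and Pf4 at −0.0099 with DFO. Female members (33 and 49) were 0.695% of the female cells given vehicle and gave 115 and 37, and 672 and 630 genes, Hmox1 at 0.49 with DFO, stem cell and megakaryocyte medians of 0.66 and 0.18 with DFO, −0.50 for megakaryocyte genes over vehicle, and −0.66 and −0.35 for multipotent genes. Male members (30 and 27) gave 173 and 93, and 1071 and 989 genes, Flt3 at 0.071 with vehicle, Jam2 at −0.53 and Pf4 at −0.31 with DFO, megakaryocyte medians of 0.10 with DFO and −0.40 over vehicle, and multipotent medians of −0.15 and −0.88.

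Thinned to 10000 molecules, 29 and 22 members remained (0.347% and 0.234%), with 424 and 315, and 2030 and 2037 genes. Gm5111 (0.0798) and Gp9 (−0.10) reversed with vehicle, and Slc25a30 (−1.03), Treml1 (3.34), Kifc1 (3.34), Insr (0.32) and Itga2b (0.63) for DFO over vehicle. The stem cell median was 0.66 with DFO, and the megakaryocyte medians 0.074 with vehicle and 0.011 for DFO over vehicle. Fewer cells widen the spread of all genes. Of the 62 and 15 genes, 58 and 14 kept their direction in both libraries when thinned, 50 and 14 with at least 2 molecules of both genes, 62 and 15 in female and 56 and 14 in male members. No paired analysis was possible because each condition is 1 library.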
